A study of Mus musculus with 32 samples.

Results

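The LIF, oncostatin receptor and STAT3 axis was followed in mouse kidney after cisplatin as 10 genes of the 54532 in the deposited table, chosen by name for their place in the pathway with earlier results of these data known. Its members were the ligands Lif and Il6, the receptor chains Lifr, Osmr, Il6ra, Il6st and Il31ra, the transcription factor Stat3, its feedback inhibitor Socs3, and Bcl3, a nuclear co-regulator known to be induced by STAT3. Whole kidneys of wild-type (wt) C57bl/6 mice, 6 to 8 weeks old, were profiled by RNA-seq in 32 libraries, 4 males and 4 females at each of Day 0, Day 2, Day 3 and Day 5. Cisplatin, a platinum drug that crosslinks DNA and injures the proximal tubule, was given once into the peritoneum at 20 mg/kg. Day 0 served as the baseline of each sex, although the labels name cisplatin as the treatment of the Day 0 females and give none for the Day 0 males. The study's methods give 4 biological replicates for each sex and day, and p-values measure the spread between these mice.

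The IL-6 family of cytokines signals through receptor pairs that share the chain encoded by Il6st. LIF pairs the LIF receptor with this chain, oncostatin M pairs the oncostatin receptor with it, and IL-6 first binds its own receptor chain, whereas IL-31 uses a pair made of the chains encoded by Il31ra and Osmr. Janus kinases bound to the receptors phosphorylate STAT3, which enters the nucleus, and STAT3 then switches on Socs3, whose product shuts the receptor complex down. In the kidney this pathway is known as an arm of the response of tubule cells to injury. A change in STAT3 phosphorylation cannot be read from transcript counts.

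The members lie on 6 chromosomes of the mouse build GRCm38. Osmr (15:6813577-6874969, minus strand) and Lifr (15:7090614-7197489, plus strand) are neighbours with 215644 bases between them. Il6st (13:112464070-112510086, plus strand) and Il31ra (13:112519898-112594360, minus strand) stand only 9811 bases apart. Lif lies at 11:4257557-4272514 on the plus strand, Stat3 at 11:100885098-100939540 and Socs3 at 11:117966079-117970047, the last pair on the minus strand. Il6 lies at 5:30013114-30019981 on the plus strand, Il6ra at 3:89864059-89913196 and Bcl3 at 7:19808462-19822770, again with the last pair on the minus strand. Stat3 overlaps the opposite-strand gene Stat5a, which reached 897 counts in a library, and reads of the overlap cannot be told apart unless the counting used strand.

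The core motif bound by STAT factors, TTCNNNGAA, reads the same on either strand and was searched in RefSeq promoter windows of GRCm38.p6 that ran from 250 bases before to 50 bases after each start. All 10 members had a window, Lifr with a pair of them, and the motif was found in Socs3 and Il31ra. These stretches are printed because both genes stood higher in the treated kidneys than at Day 0 in most libraries. Capitals mark the motif, which began 154 bases before the start in Socs3 and 191 bases before it in Il31ra, and each stretch falls inside the gene's span in the deposited annotation.
Socs3, chr11:117969502-117969530, minus strand: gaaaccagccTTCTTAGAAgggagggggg
Il31ra, chr13:112580835-112580863, minus strand: cctgaagggtTTCCAGGAAattgtgataa
Counted by gene, the same letters stood in 2582 of 27025 genes with a window, 9.55%, and in 8 of the 58 members and pathway genes that had one, and counted by window in 2726 of 32851, 8.30%. The match is a description of the sequence and not evidence of binding.

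Library totals ranged from 16502107 to 35961325 counts. Transcripts of the mitochondrial genome took 4.49% to 24.0% of the counts at Day 0 and 4.87% to 14.03% at Day 2 and Day 3, but 42.5%, 78.9%, 79.8% and 79.7% in male Day 5 mice 1 to 4 and 31.6%, 77.9%, 22.2% and 9.30% in female Day 5 mice 1 to 4. Xist, the transcript of the inactive X chromosome, had 0 to 242 counts in the Day 0 males, 0 to 5 in the Day 2 and Day 3 males and 59 to 260 in male Day 5 mice 2 to 4. It had 4153 counts in the library labelled male Day 5 mouse 1, where Y-linked genes had 387, which goes against its label. Where the main log2 fold change of a single member is printed below from a test that used this library, the value without it is usually printed too. Other tests of members that used it are not printed. The female Day 0 libraries held 5 to 221 Y-linked counts, against 0 in all the other female libraries. Male Day 0 mouse 3 and female Day 0 mouse 3 had the fewest genes with a count at Day 0, 17985 and 16265, although their totals were 30740491 and 23647121. Female Day 0 mouse 2 carried hepatocyte marker transcripts at a summed 9107 CPM (counts scaled to a common library size). Checked against the kidney label, 5 proximal tubule markers (Slc34a1, Lrp2, Cubn, Slc5a2 and Slc22a6) summed to 5849 to 8556 CPM in the Day 0 libraries and to 309 to 3270 CPM in the male Day 5 libraries. In whole tissue, fewer cells of a type and less RNA per cell cannot be told apart.

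Levels are given as CPM scaled by TMM factors over all 32 libraries, and as deposited FPKM, fragments scaled to gene length and depth, only where genes are compared with each other. A gene passed the test when the Benjamini-Hochberg adjusted p of edgeR's quasi-likelihood test, adjusted over all genes tested in that comparison, was under 0.05. At Day 0 the order of the members per length, by their mean over 4 mice, was the same in both sexes for the first 7, while by the median Stat3 came before Il6st in the females (6.76 and 6.04 FPKM). Il6st had the highest FPKM in the males at 9.20 ± 3.34 (SD, n = 4), followed by Stat3 at 5.77 ± 0.96, Lifr at 4.34 ± 0.47, Bcl3 at 3.68 ± 0.19, Socs3 at 1.05 ± 0.91, Osmr at 0.629 ± 0.156 and Il6ra at 0.399 ± 0.304. Of these neighbours in the male order, only Bcl3 and Socs3 did not overlap. In the females Stat3 and Lifr, Bcl3 and Socs3, and Il6ra and Lif did not overlap, and all other neighbours did. Lif, Il31ra and Il6 closed the order, with Lif at 0.102 ± 0.071 FPKM in the males and 0.0566 ± 0.0396 in the females. The resting kidney therefore held the signalling chain, Stat3 and Lifr at far higher transcript levels than Lif.

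After cisplatin 6 of the 8 members tested in the males had a positive log2 fold change against Day 0 on all 3 days, the exceptions being Bcl3 at Day 2 and Day 3 and Lifr at Day 5, and every one of the 8 or 9 tested did in the females. Lif had the largest fold changes and passed in more of these comparisons than any other member, and Osmr, Socs3, Stat3 and Lifr passed in fewer. Il6st passed in none, although its log2 fold changes at Day 2 and Day 3 (0.60 to 0.87) were close in size to those of Stat3 (0.50 to 0.99). In the males no member passed at Day 2, where 3.16% of all genes tested did. At Day 3 4 of the 8 tested passed, all higher (Lif, Lifr, Osmr and Stat3), against 24.5% of all genes in either direction and 11.4% higher. At Day 5 only Osmr passed, against 19.2% of all genes, and without the library labelled male Day 5 mouse 1 Osmr again passed alone, against 26% of all genes. In the females Lif alone passed at Day 2 (1.93% of all genes), Lif, Osmr and Socs3 passed at Day 3 (3 of 9 tested, against 5.54% of all genes and 1.26% higher), and Lif alone passed at Day 5 (0.258% of all genes). The median log2 fold change of the members tested was 0.83, 0.92 and 0.87 in the males at Day 2, Day 3 and Day 5, and 0.69, 0.99 and 0.66 in the females, beside medians of all genes tested between 0.02 and 0.04. Il31ra entered these tests only in the females at Day 3 and Il6 in none, because their counts were too low.

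**Figure D1:**
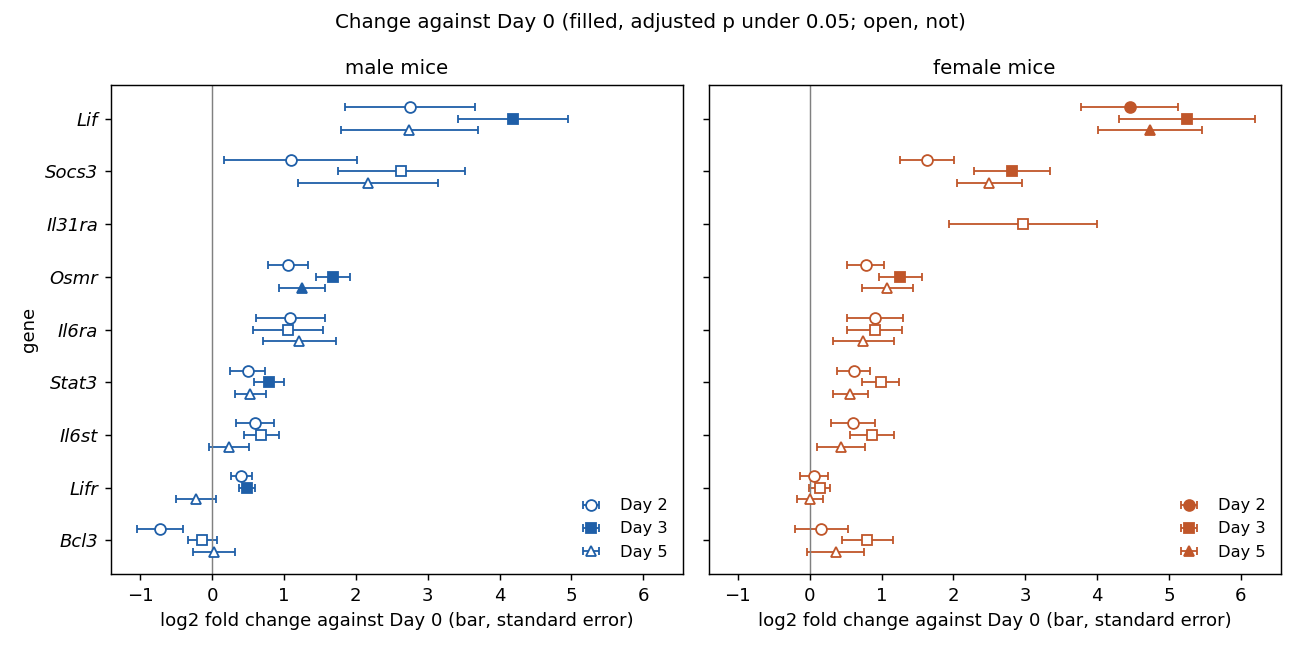
Log2 fold change against Day 0 with its standard error for 9 members at Day 2 (circles), Day 3 (squares) and Day 5 (triangles), males left and females right, on the same x axis. Filled symbols passed the test, and Lif lies farthest to the right in every comparison, up to 5.25 in the females at Day 3.

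Lif, which encodes leukaemia inhibitory factor, was barely detected at Day 0. Male Day 0 mice 1 to 4 had 0.651, 0.50, 0 and 0.690 CPM (0 to 12 counts) and female Day 0 mice had 0.292, 0.302, 0 and 0.405 CPM (0 to 15 counts). The mouse at 0 was in each sex the library with few genes detected. At Day 2 the males had 0.878, 3.20, 1.89 and 6.14 CPM and the females 4.43, 7.05, 8.89 and 2.89 CPM. Every treated mouse at Day 2 already lay above all Day 0 mice of its sex. Day 3 brought 11.2, 7.45, 10.5 and 3.15 CPM in males and 16.1, 1.09, 8.996 and 14.6 CPM in females, and Day 5 brought 2.07, 2.38, 6.45 and 0.842 CPM in males and 11.5, 7.22, 6.04 and 3.52 CPM in females. None of the 24 treated mice overlapped the Day 0 mice of their own sex, the nearest being male Day 5 mouse 4 at 0.842 CPM and female Day 3 mouse 2 at 1.09 CPM.

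The rise of Lif passed in the males at Day 3, with a log2 fold change of 4.19 (SE 0.77, edgeR adjusted p = 0.011), and in the females on all 3 days. In the females it was 4.45 (SE 0.68, edgeR adjusted p = 0.016) at Day 2, 5.25 (SE 0.94, edgeR adjusted p = 0.046) at Day 3 and 4.74 (SE 0.72, edgeR adjusted p = 0.029) at Day 5. The male estimates at Day 2 and Day 5 were 2.76 (SE 0.90, edgeR adjusted p = 0.092) and 2.75 (SE 0.96, edgeR adjusted p = 0.071). Without male Day 0 mouse 3 those male values were 2.28 and 2.30 with edgeR adjusted p of 0.048 and 0.044, when 14% and 19.9% of all genes passed, and without the library labelled male Day 5 mouse 1 the Day 5 value was 2.89 with an edgeR adjusted p of 0.077. The male Day 3 call held whichever mouse was left out. In the females it was lost at Day 2 without Day 0 mouse 1 or 2 or Day 2 mouse 1, 2 or 3. At Day 3 it was lost without Day 0 mouse 1, 2 or 3 or Day 3 mouse 1, 3 or 4. At Day 5 it was lost without Day 0 mouse 1 or 2 or any Day 5 mouse. In these fits the edgeR adjusted p reached 0.078, 0.17 and 0.15, while the log2 fold change stayed between 4.13 and 5.62. Calls over all genes fell to between 21 and 45, to 0 or 1 and to between 8 and 44, against 320, 945 and 42 with all mice. With a block for the mouse number every Lif call was lost. Over all genes the block left 90 calls in the males at Day 3, and 52, 0 and 36 in the females at Day 2, Day 3 and Day 5.

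**Figure D2:**
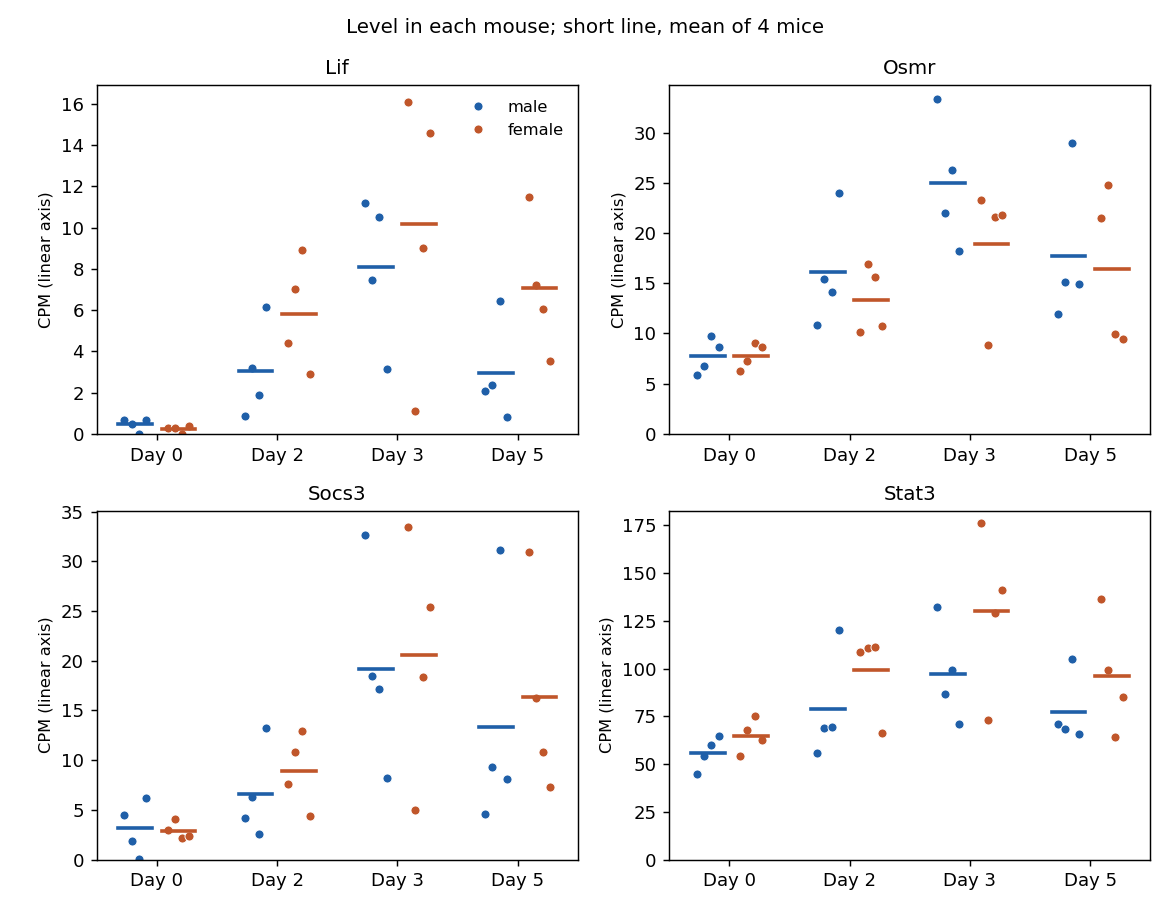
CPM of Lif, Osmr, Socs3 and Stat3 in each of the 32 mice by day, males blue and females orange, on linear axes, with a short line at the mean of 4 mice. Lif stays at or under 0.690 CPM at Day 0 and reaches 16.1 CPM at Day 3, where female mouse 2 stands at 1.09 CPM.

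Il6, the founding ligand of the family, was at 0 counts in 20 of the 32 libraries and passed the filter on low counts in no comparison. Its counts were 0, 1, 3 and 4 in the males at Day 2, 0, 11, 5 and 1 in the males at Day 3, and at most 3 in any treated female. All 8 libraries of Day 5 had 0 counts, a floor of 3 counts a library at their depth. The highest value belonged to an untreated kidney, male Day 0 mouse 3, with 62 counts or 2.26 CPM. No rise of Il6 with cisplatin was detectable at this depth, and no fold is given because the groups lie near the floor of 3 counts.

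The other ligands of the family were read from a list of 11 that includes Lif and Il6. Oncostatin M (Osm) had 0 to 11 counts at Day 0 and 0 to 8 in the treated groups, and Il11, which encodes interleukin-11, had 0 to 28 counts over all libraries. Il27, Il31 and Cntf stayed at or under 10 counts in every library. Lif was thus the only ligand of the list to pass in the females, at each of the 3 days. In the males Clcf1, a cardiotrophin-like cytokine, also passed with a log2 fold change of 0.999 (SE 0.26, edgeR adjusted p = 0.028) at Day 3 and 1.68 (SE 0.34, edgeR adjusted p = 0.014) at Day 5. The Day 5 call of Clcf1 held without any single mouse (1.82 without the library labelled male Day 5 mouse 1), and its Day 3 call was lost without Day 0 mouse 2 or Day 3 mouse 1, 2 or 3.

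Osmr, the receptor chain for oncostatin M, rose in both sexes from similar levels at Day 0. Male mice 1 to 4 had 5.86, 6.80, 9.74 and 8.63 CPM at Day 0 and 33.4, 22.004, 26.3 and 18.2 CPM at Day 3. Female mice 1 to 4 had 6.26, 7.23, 9.06 and 8.63 CPM at Day 0 and 23.3, 8.84, 21.6 and 21.8 CPM at Day 3. The male groups did not overlap, whereas female Day 3 mouse 2 lay among the Day 0 mice and stood apart from the other 3 of its group. At Day 2 the males had 10.9, 15.5, 14.1 and 24.0 CPM and the females 10.1, 16.9, 15.6 and 10.8 CPM, all above Day 0. At Day 5 the males had 11.9, 15.2, 29.0 and 14.9 CPM and the females 21.5, 24.8, 9.98 and 9.44 CPM, again all above Day 0.

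The log2 fold change of Osmr was 1.68 (SE 0.24, edgeR adjusted p = 0.0060) in the males at Day 3 and 1.25 (SE 0.32, edgeR adjusted p = 0.028) at Day 5, and 1.26 (SE 0.31, edgeR adjusted p = 0.049) in the females at Day 3. With DESeq2's size factors in edgeR the female Day 3 call was lost, at 1.28 with an adjusted p of 0.051. It was 1.06 (SE 0.28, edgeR adjusted p = 0.061) in the males and 0.78 (SE 0.26, edgeR adjusted p = 0.10) in the females at Day 2, and 1.08 (SE 0.35, edgeR adjusted p = 0.21) in the females at Day 5. The male Day 3 call held without any single mouse, and the male Day 5 call was 1.42 (edgeR adjusted p = 0.012) without the library labelled male Day 5 mouse 1. It was lost without Day 0 mouse 1 or 2 or Day 5 mouse 2, 3 or 4, with an edgeR adjusted p of up to 0.080. The female Day 3 call held without Day 0 mouse 4 or Day 3 mouse 2 and was lost without any of the others, with an edgeR adjusted p of up to 0.17. In the fits that lost it, 0 or 1 of all genes tested passed. With a block for the mouse number the Day 3 call was lost in both sexes.

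Lifr, the receptor chain for LIF, changed far less than its ligand. In the males it stood at 51.4, 53.8, 40.0 and 46.5 CPM at Day 0 and at 70.3, 66.6, 64.5 and 67.0 CPM at Day 3, a log2 fold change of 0.49 (SE 0.11, edgeR adjusted p = 0.020) between groups that did not overlap. In the females it stood at 43.9, 55.0, 45.8 and 52.5 CPM at Day 0 and at 48.9, 61.8, 55.1 and 53.5 CPM at Day 3, a log2 fold change of 0.14 (SE 0.15, edgeR adjusted p = 0.52) between overlapping groups. Lifr at Day 3 was the only member to pass between the sexes at any day, higher in the males by 0.26 on the log2 scale (SE 0.08, edgeR adjusted p = 0.039), when 21.3% of all genes tested passed in that comparison. The sex difference in its change from Day 0 to Day 3 was 0.32 (SE 0.18, edgeR adjusted p = 0.79) and so was not shown. A fit over all 8 groups and a block for the mouse number each took Lifr over the threshold at male Day 3 against Day 0 (edgeR adjusted p up to 0.068). Leaving out any Day 3 male did the same (up to 0.064), and leaving out any mouse but female Day 3 mouse 2 did so between the sexes (up to 0.089).

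At Day 5 Lifr split the males, with 60.8 CPM in the library labelled mouse 1 and 26.3, 43.5 and 26.7 CPM in mice 2 to 4. Against Day 3 the log2 fold change was -0.68 (SE 0.25, edgeR adjusted p = 0.053), and without the library labelled mouse 1 it was -0.99 (edgeR adjusted p = 0.00083). The change also passed under each of the 6 other settings of the test with all mice. In the same libraries the summed proximal tubule markers were highest in mouse 1 at 3270 CPM and the mitochondrial share was 42.5%, against 78.9% to 79.8% in the other 3, and their part in the result was not tested. Female Day 5 mice held Lifr at 47.4, 50.5, 45.6 and 54.3 CPM, within the range of the female Day 0 mice.

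The balance of both receptors was followed as the Osmr FPKM divided by the Lifr FPKM of the same library, which is a per-length quantity. Male Day 0 mice 1 to 4 had ratios of 0.101, 0.113, 0.217 and 0.165, and male Day 3 mice had 0.422, 0.294, 0.363 and 0.241. Female Day 0 mice had 0.127, 0.117, 0.176 and 0.146, and female Day 3 mice had 0.424, 0.127, 0.349 and 0.362. Osmr was thus the lower receptor in each of these libraries, and the male groups did not overlap while female Day 3 mouse 2 lay inside the Day 0 range. Male Day 5 mice had 0.174, 0.513, 0.593 and 0.496 and female Day 5 mice 0.404, 0.436, 0.195 and 0.155. At Day 2 the mean ratio was 0.239 ± 0.120 (SD, n = 4) in the males and 0.232 ± 0.055 in the females.

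**Figure D3:**
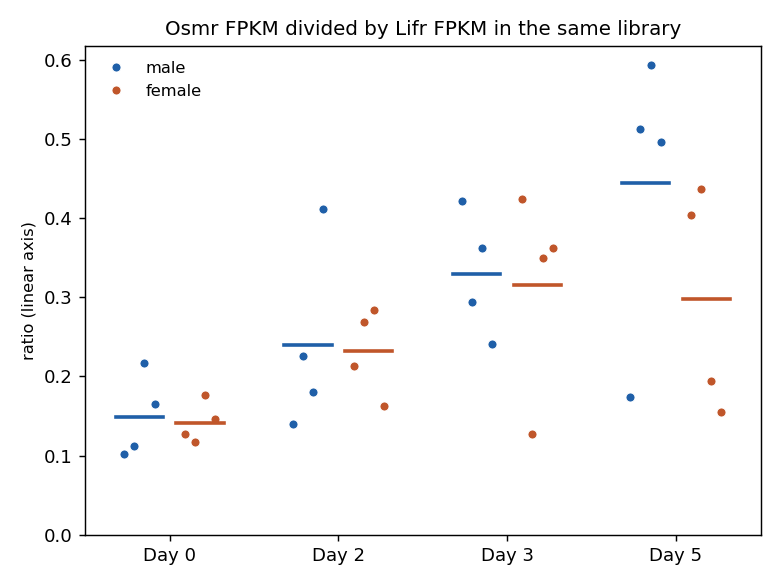
Osmr FPKM divided by Lifr FPKM in each mouse by day on a linear axis, males blue and females orange, with a short line at the mean of 4 mice. Day 0 mice lie between 0.101 and 0.217, and the highest ratio, 0.593, belongs to male Day 5 mouse 3.

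Il6st, the shared signal-transducing chain, had the highest mean FPKM of the members at Day 0, a rank that in the females rested on mouse 4 at 12.7 FPKM and did not hold for the median, and it did not pass against Day 0 on any day in either sex. Male mice had 105, 102, 58.2 and 153 CPM at Day 0 and 172, 168, 173 and 162 CPM at Day 3, and female mice had 69.8, 67.2, 50.5 and 141 CPM at Day 0 and 164, 134, 170 and 137 CPM at Day 3. The Day 3 males all lay above the Day 0 males, by a log2 fold change of 0.69 (SE 0.25, edgeR adjusted p = 0.073), while in the females the value was 0.87 (SE 0.30, edgeR adjusted p = 0.098). From Day 3 to Day 5 Il6st fell in the males, by 0.43 on the log2 scale (SE 0.15, edgeR adjusted p = 0.043), in a comparison in which 37.9% of all genes passed. That fall was 0.44 at an edgeR adjusted p of 0.022 without the library labelled male Day 5 mouse 1, where 55.2% of all genes passed, and it also passed without mouse 3. It was lost without any Day 3 male or without Day 5 mouse 2 or 4, with an edgeR adjusted p of up to 0.11. It was also lost in a fit over all 8 groups and with a block for the mouse number, with an edgeR adjusted p of up to 0.13. The female change from Day 3 to Day 5 was -0.43 (SE 0.20, edgeR adjusted p = 0.43).

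Il6ra, the chain that binds IL-6, had higher group means after cisplatin but overlapped Day 0 throughout. At Day 0 the males had 2.82, 2.55, 1.31 and 7.48 CPM and the females 3.96, 3.46, 2.20 and 8.28 CPM, so that mouse 4 of each sex stood well above its group. The treated groups ranged from 5.62 to 11.8 CPM in the males and from 5.17 to 10.8 CPM in the females. Log2 fold changes were 0.75 to 1.22, with edgeR adjusted p between 0.12 and 0.41, and the male Day 5 value was 1.34 (edgeR adjusted p = 0.11) without the library labelled mouse 1. Without Day 0 mouse 4 Il6ra passed in both sexes at Day 2 and at Day 3, and at Day 5 in the males, with log2 fold changes of 1.39 to 1.86. The share of all genes passing also rose in those fits, to 14% and 34.7% in the males at Day 2 and Day 3, 21.7% in the males at Day 5, and 28.3% and 39.1% in the females at Day 2 and Day 3. Il6st also passed without that mouse in each sex at Day 2 and at Day 3, at 0.85 and 0.94 in the males and 1.002 and 1.26 in the females. Those mice had the highest mitochondrial shares of their Day 0 groups, 24.0% in the male and 19.7% in the female, the lowest summed thick ascending limb markers of those groups, 388 CPM in the male and 436 CPM in the female, and the highest fibroblast and pericyte markers, 399 and 283 CPM, whose part was not tested.

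Il31ra, the chain that pairs with Osmr to bind IL-31, was almost silent at Day 0 and was counted in every mouse at Day 2 and Day 3. The counts at Day 0 were 1, 0, 0 and 1 in the males and 0, 1, 0 and 13 in the females. At Day 3 they were 27, 12, 11 and 6 in the males (0.233 to 1.13 CPM) and 41, 20, 44 and 31 in the females (0.447 to 1.02 CPM). At Day 2 they were 10, 13, 3 and 6 in the males and 7, 21, 22 and 8 in the females. The Day 2 and Day 3 males lay above all Day 0 males, as did the Day 3 females above all Day 0 females, though female Day 0 mouse 4 overlapped Day 2. Only the female Day 3 comparison passed the filter with all mice, with a log2 fold change of 2.96 (SE 1.03, edgeR adjusted p = 0.095). The value rested on Day 0 mouse 4, without which the Day 0 counts of 0, 1 and 0 lie under the floor of 3 and no fold is given. Without that mouse Il31ra passed, in a fit where 6774 of 17304 genes passed. It also passed in the females at Day 3 with DESeq2, which called 3472 genes. The male Day 3 comparison entered the test only under other settings. There Il31ra passed higher with DESeq2, without the filter, in a fit over all 8 groups and without Day 0 mouse 1, 2 or 4, again with no fold given because the Day 0 males had at most 1 count. Day 5 counts were 2, 0, 3 and 5 in the males and 29, 5, 0 and 8 in the females, and Il31, the ligand, had at most 2 counts in any library.

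**Figure D4:**
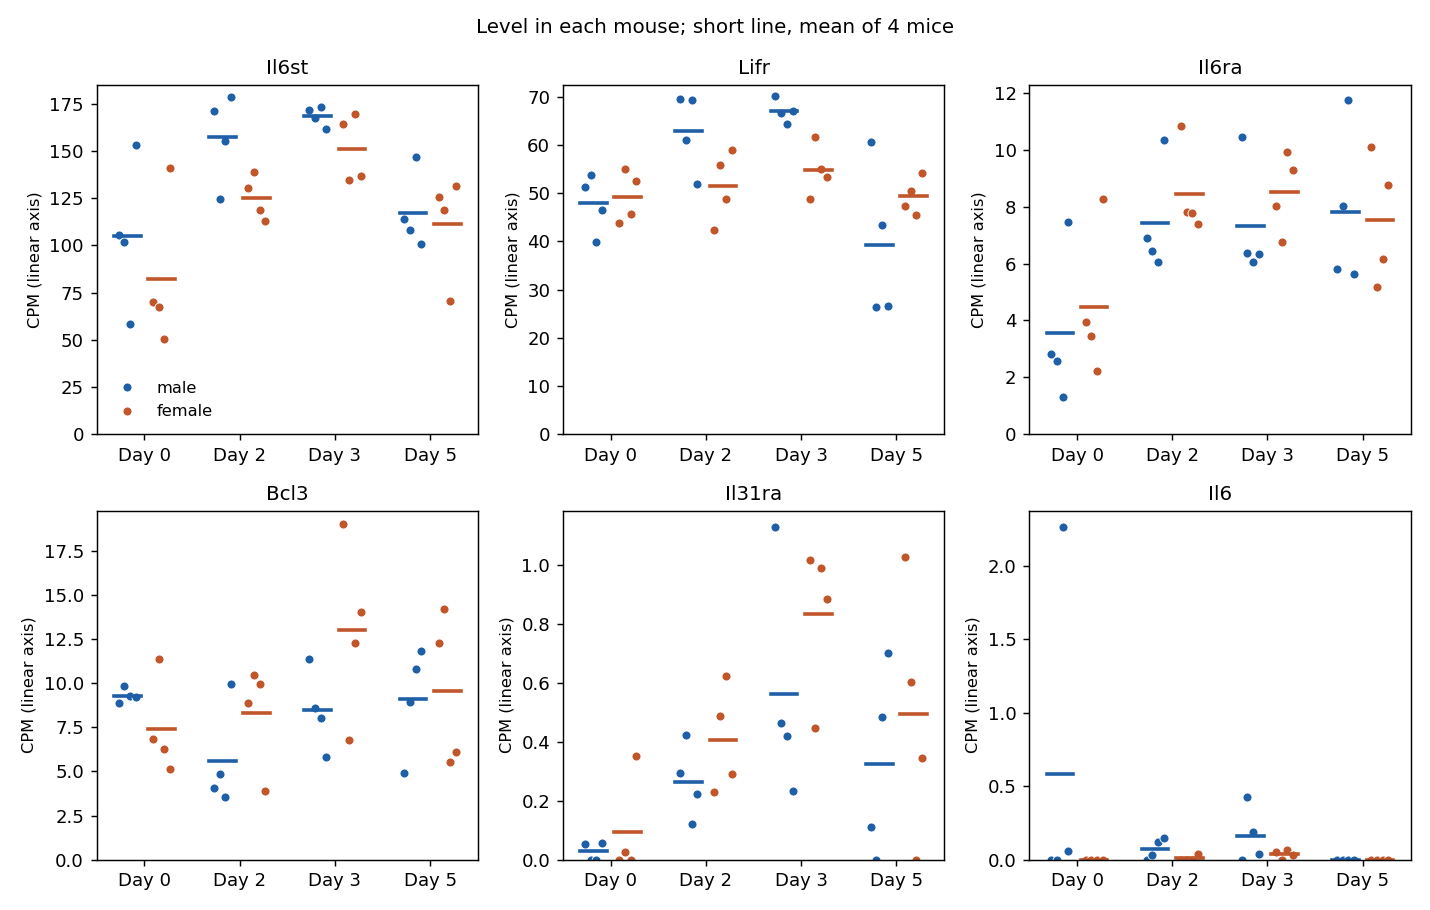
CPM of Il6st, Lifr, Il6ra, Bcl3, Il31ra and Il6 in each of the 32 mice by day, males blue and females orange, on linear axes that differ between panels, with a short line at the mean of 4 mice. Il6 is near 0 except in male Day 0 mouse 3 at 2.26 CPM, and mouse 4 of each sex is the highest for Il6st and Il6ra at Day 0.

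Stat3, the factor phosphorylated downstream of all these receptors, had smaller fold changes than Lif or Osmr at Day 3. In the males it went from 44.8, 54.5, 60.2 and 64.9 CPM at Day 0 to 132, 86.9, 99.6 and 71.2 CPM at Day 3, without overlap, a log2 fold change of 0.79 (SE 0.21, edgeR adjusted p = 0.029). In the females it went from 54.3, 67.7, 75.4 and 62.6 CPM to 176, 73.2, 129 and 141 CPM, a log2 fold change of 0.99 (SE 0.26, edgeR adjusted p = 0.052), with mouse 2 inside the Day 0 range. Without female Day 3 mouse 2 the female value was 1.19 (edgeR adjusted p = 0.022), when 3.15% of all genes passed. The male call held without Day 0 mouse 3 or 4 or Day 3 mouse 4 and was lost without each of the others, with an edgeR adjusted p of up to 0.082. It was also lost with a block for the mouse number. At Day 2 and Day 5 the log2 fold changes were 0.50 and 0.53 in the males and 0.61 and 0.57 in the females, none of which passed, although the Day 5 males at 70.9, 68.5, 105 and 65.6 CPM all lay above the Day 0 males. Without the library labelled male Day 5 mouse 1 the male Day 5 value was 0.59 (edgeR adjusted p = 0.090).

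Among the 11 Janus kinases and STAT factors 10 were tested in each comparison with Day 0. In the males at Day 3, 4 of them passed higher, against 11.4% of all genes. Jak2, a kinase bound to the receptor chains, had a log2 fold change of 0.52 (SE 0.11, edgeR adjusted p = 0.016), Jak3 of 0.81 (SE 0.18, edgeR adjusted p = 0.018) and Tyk2 of 0.50 (SE 0.16, edgeR adjusted p = 0.046), beside Stat3. Only Jak3 passed in the males at Day 5, at 1.27 (SE 0.28, edgeR adjusted p = 0.017), and none of the 10 passed in the females on any day. Of the Day 3 calls, that of Jak2 was lost without Day 3 mouse 2 or 3, that of Jak3 without Day 3 mouse 1, 2 or 3, and that of Tyk2 without any Day 3 mouse or Day 0 mouse 1 or 2. The Day 5 call of Jak3 was lost without Day 0 mouse 1 or 2 or Day 5 mouse 2, and was 1.47 (edgeR adjusted p = 0.0025) without the library labelled male Day 5 mouse 1.

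Socs3, the feedback inhibitor that STAT3 induces, rose in the females at Day 3 and had large but more variable values in the males. Female mice had 2.98, 4.04, 2.16 and 2.35 CPM at Day 0, 7.62, 10.9, 13.0 and 4.37 CPM at Day 2, 33.4, 5.00, 18.4 and 25.4 CPM at Day 3 and 31.0, 16.2, 10.8 and 7.29 CPM at Day 5. Male mice had 4.504, 1.85, 0.0365 and 6.16 CPM at Day 0, 4.18, 6.31, 2.57 and 13.3 CPM at Day 2, 32.7, 18.5, 17.1 and 8.24 CPM at Day 3 and 4.59, 9.36, 31.1 and 8.14 CPM at Day 5. No treated female overlapped Day 0, and in the males the same was true only at Day 3. The single count in male Day 0 mouse 3 sat beside the 62 counts of Il6 in that library.

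In the females the log2 fold change of Socs3 was 1.63 (SE 0.38, edgeR adjusted p = 0.051) at Day 2, 2.82 (SE 0.52, edgeR adjusted p = 0.046) at Day 3 and 2.50 (SE 0.45, edgeR adjusted p = 0.056) at Day 5. In the males it was 1.10 (SE 0.92, edgeR adjusted p = 0.45), 2.64 (SE 0.88, edgeR adjusted p = 0.059) and 2.17 (SE 0.98, edgeR adjusted p = 0.14). Without male Day 0 mouse 3 the male Day 3 value was 2.21 (edgeR adjusted p = 0.019, with 38.6% of all genes passing), and without the library labelled male Day 5 mouse 1 the Day 5 value was 2.47 (edgeR adjusted p = 0.10). The female Day 3 call held only without Day 0 mouse 4 or Day 3 mouse 2, and reached an edgeR adjusted p of up to 0.17 without each of the others. In the fits that lost it, 0 or 1 of all genes tested passed. It was also lost with a block for the mouse number. The list of 13 feedback genes and inhibitors, all tested, gave Socs3 alone in the females at Day 3, and in the males Socs5, at 0.41 (SE 0.12, edgeR adjusted p = 0.041) at Day 3 and 0.74 (SE 0.18, edgeR adjusted p = 0.024) at Day 5. Socs5 held at Day 3 only without Day 0 mouse 3, and at Day 5 it was lost without Day 0 mouse 1 or 2 or Day 5 mouse 2, 3 or 4, and was 0.80 (edgeR adjusted p = 0.016) without the library labelled male Day 5 mouse 1.

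Bcl3 passed in no comparison of all the mice. It stood at 8.85, 9.85, 9.27 and 9.20 CPM in the Day 0 males and at 4.04, 4.86, 3.53 and 9.95 CPM in the Day 2 males, a log2 fold change of -0.72 (SE 0.32, edgeR adjusted p = 0.17). In the females it stood at 6.85, 11.4, 6.27 and 5.15 CPM at Day 0 and at 18.99, 6.79, 12.3 and 14.1 CPM at Day 3, a log2 fold change of 0.80 (SE 0.35, edgeR adjusted p = 0.16). The values on the matching days were -0.14 (SE 0.20, edgeR adjusted p = 0.63) in the males at Day 3 and 0.16 (SE 0.36, edgeR adjusted p = 0.80) in the females at Day 2, and the difference between the sexes in the change to Day 3 was -0.96 (SE 0.42, edgeR adjusted p = 0.66). Between the sexes at Day 3 the log2 difference of males against females was -0.65 (SE 0.31, edgeR adjusted p = 0.17), and it passed without female Day 3 mouse 2, at -0.86 (edgeR adjusted p = 0.018), when 34.6% of all genes did.

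Bcl3 also stood in a list of 30 genes known to respond to STAT3 or to IL-6 type cytokines. At Day 3 8 of 27 tested passed higher in the males and 3 of 29 in the females, with median log2 fold changes of 0.40 in each, and none passed lower. Of all genes tested, 11.4% passed higher in the males and 1.26% in the females. In the males the immediate early factors Fos and Junb had log2 fold changes of 3.05 (SE 0.45, edgeR adjusted p = 0.0065) and 1.84 (SE 0.33, edgeR adjusted p = 0.010), the mRNA-decay factor Zfp36 1.77 (SE 0.29, edgeR adjusted p = 0.0083) and Fgg, a fibrinogen chain, 2.14 (SE 0.60, edgeR adjusted p = 0.035). Lcn2, which encodes the injury protein NGAL, had 3.53 (SE 0.73, edgeR adjusted p = 0.016) in the males and 4.40 (SE 0.81, edgeR adjusted p = 0.046) in the females, and the adhesion molecule Icam1 had 1.62 (SE 0.25, edgeR adjusted p = 0.0073) and 2.72 (SE 0.56, edgeR adjusted p = 0.046). Tnfrsf12a, the TWEAK receptor, passed in the females at 2.43 (SE 0.53, edgeR adjusted p = 0.048). The male calls of Fos, Junb, Zfp36 and Icam1 held without any single mouse, that of Lcn2 was lost without Day 3 mouse 3 and that of Fgg held only without Day 3 mouse 4. All 3 female calls were lost without Day 0 mouse 1, 2 or 3 or Day 3 mouse 1, 3 or 4. In those female fits 0 or 1 of all genes tested passed. Fgg reached 287 CPM in female Day 0 mouse 2, the library with hepatocyte transcripts. Leaving out the members, 13 of 53 genes of the 5 lists passed higher in the males at Day 3, and 3 of 56 higher in the females.

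Within the treated groups the mice differed widely, and their order for Lif, Stat3, Socs3 and Osmr was set beside the summed level of 4 injured tubule markers (Havcr1, Lcn2, Krt20 and Vcam1). The sum was 10.7 to 16.2 CPM in the Day 0 mice, 17.97 to 110 CPM in the Day 3 males and 28.5 to 371 CPM in the Day 3 females. In each of the 6 treated groups the mouse with the highest sum was also the mouse with the highest Lif, the highest Stat3 and the highest Socs3. Osmr was highest in that mouse in 4 of the 6 groups. The mouse with the lowest sum was the lowest for Osmr in all 6, for Lif and Socs3 in 4 and for Stat3 in 3. Il6st was highest in the mouse with the highest sum in only 2 of the 6 groups, Il6ra and Il31ra in 4 and Bcl3 in 3. At the low end Il6st shared the mouse in 2, Il6ra in 1 and Il31ra and Bcl3 in 3. Lifr went the other way in 4 of the 6, being highest in the mouse with the lowest sum, and the proximal tubule sum was highest in that mouse in 5. In the mouse with the highest sum Lifr was lowest in 2 groups and the proximal tubule sum in 4. How many of all genes share these orders was not counted. These orders are a description over 4 mice a group, in libraries whose depth and composition the quantities share, and Lcn2 stands in the injured tubule list as well as in the STAT3 list.

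Female Day 3 mouse 2 was the plainest case. Its injured tubule sum was 28.5 CPM against 139 to 371 CPM in the other 3, its proximal tubule sum of 5904 CPM was the highest of the group, and its Lif (1.09 CPM), Osmr (8.84 CPM), Stat3 (73.2 CPM), Socs3 (5.00 CPM) and Bcl3 (6.79 CPM) were each the lowest. Female Day 3 mouse 1, at the other end, had an injured tubule sum of 371 CPM with 16.1 CPM of Lif, 176 CPM of Stat3 and 33.4 CPM of Socs3. Male Day 2 mouse 4 had 124 CPM against 16.2 to 20.8 CPM in the others, and its Osmr (24.0 CPM), Stat3 (120 CPM) and Socs3 (13.3 CPM) were the highest of the male Day 2 mice.

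**Figure D5:**
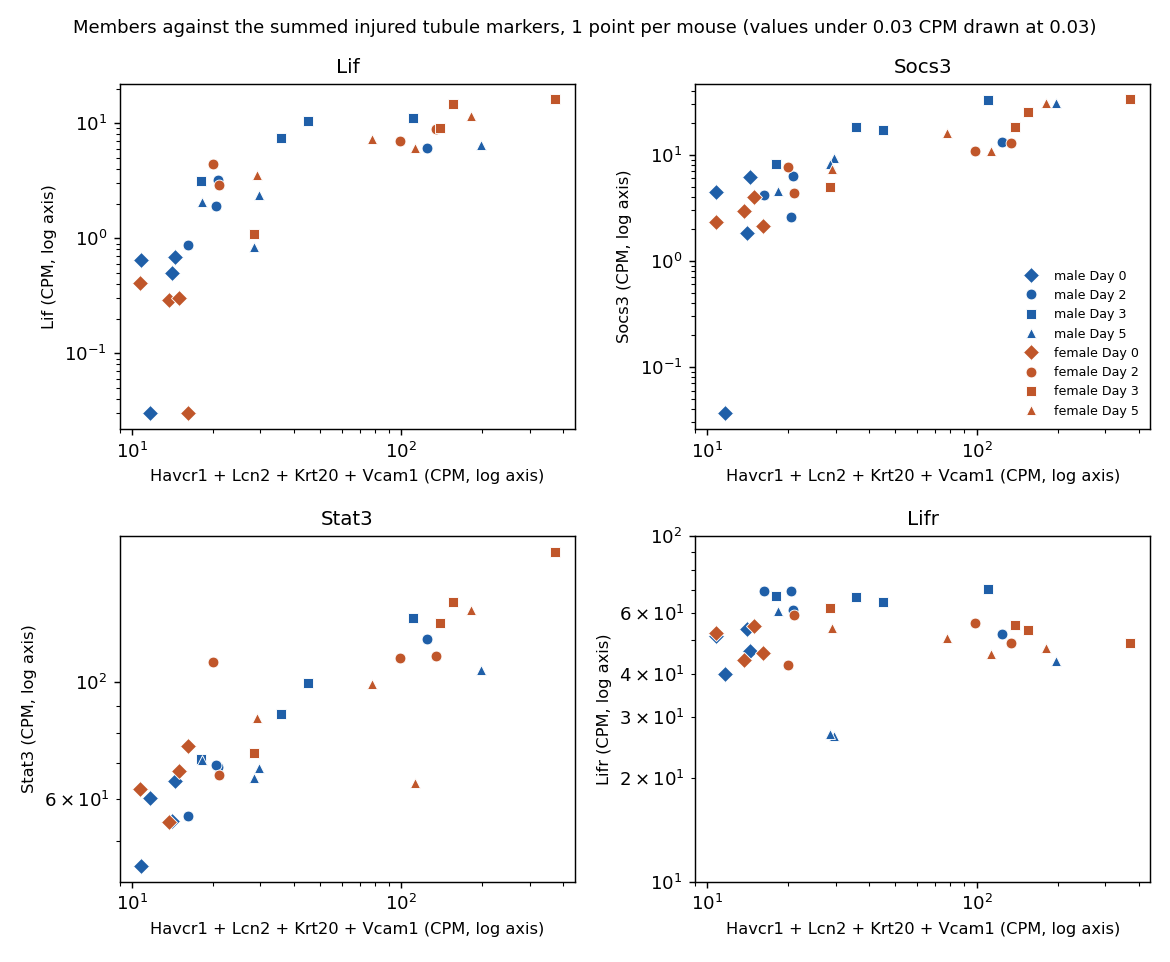
CPM of Lif, Socs3, Stat3 and Lifr against the summed CPM of Havcr1, Lcn2, Krt20 and Vcam1, 1 point per mouse, with log axes, sexes by colour and days by symbol. Lif, Socs3 and Stat3 lie higher in mice with larger sums, up to 16.1, 33.4 and 176 CPM at a sum of 371 CPM, while Lifr lies at 48.9 CPM in that mouse.

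Markers of other cells did not all follow the same course. Of the 8 macrophage and monocyte markers none passed higher against Day 0 on any day in either sex, and their summed level was 105 to 133 CPM in the Day 3 males against 152 to 253 CPM at Day 0, with 3 of the 8 passing lower. The 7 neutrophil markers summed to 0.723 to 9.70 CPM in all groups but the male Day 5 group, where they summed to 11.2 to 228 CPM and 3 of the 3 tested passed higher. Ly6g and Mmp8 were at 0 in all Day 0 libraries. At Day 3, where Lif, Osmr and Stat3 passed in the males, the neutrophil sum was 2.22 to 5.46 CPM against 1.41 to 2.30 CPM at Day 0. In the male Day 5 libraries, where Osmr passed, adipocyte markers summed to 626 to 3368 CPM and fibroblast and pericyte markers to 217 to 1251 CPM, against 320 to 1924 and 101 to 399 CPM at Day 0, with 2 of the 4 fibroblast and pericyte markers passing higher. There 2 of the 4 endothelium markers also passed higher, with a sum of 176 to 401 CPM against 169 to 215 CPM, and 1 of the 3 collecting duct markers, with a sum of 787 to 1462 CPM against 377 to 825 CPM, and 1 of the 5 erythroid markers, while 2 of the 5 proximal tubule markers and 1 of the 8 macrophage and monocyte markers passed lower. The part of these cells in the result was not tested. In the males at Day 3 the 3 podocyte markers summed to 295 to 350 CPM against 119 to 203 CPM at Day 0, with 2 passing higher. The 4 fibroblast and pericyte markers summed to 217 to 268 CPM against 101 to 399 CPM, with 2 passing higher, and the 6 adipocyte markers to 180 to 242 CPM against 320 to 1924 CPM, with 3 passing lower. The part of these cells in the male Day 3 calls was not tested. Of the 5 erythroid markers all passed lower in the males at Day 3 and in the females at Day 2 and Day 3, with median log2 fold changes of -10.1, -6.05 and -5.72. Their sum was 434 to 2150 CPM in the Day 0 males and 411 to 2653 CPM in the Day 0 females, against 0.811 to 2.25 CPM in the Day 3 males and 7.002 to 44.9 and 3.13 to 77.97 CPM in the Day 2 and Day 3 females. These are comparisons in which Lif passed, and the part of the erythroid transcripts in the result was not tested. Other markers passed there too. In the males at Day 3, 1 of 5 proximal tubule and 1 of 4 injured tubule markers passed higher. Among the macrophage and monocyte markers 1 of 8 passed lower in the females at Day 2 and 2 of 8 at Day 3. The females at Day 3 also had 1 of 3 collecting duct and 1 of 4 endothelium markers lower and 3 of 4 injured tubule markers higher. The 4 adrenal cortex markers summed to 6.94 to 1418 CPM in the Day 3 females and 362 to 890 CPM in the Day 5 females against 2.85 to 178 CPM at Day 0, with none passing, and to 20.9 to 106 CPM in the Day 5 males against 0.730 to 11.9 CPM at Day 0, where 3 of the 3 tested passed higher. Their part was not tested either. T cell and B cell markers stayed at or under 12.5 and 14.4 CPM in every library.

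Between the days after cisplatin no member passed from Day 2 to Day 3 in either sex, and no gene at all did in the main edgeR fit (0% of 16232 in the males and 16974 in the females). Without the filter on low counts edgeR called 1 gene in the males and 2 in the females. With a block for the mouse number it called 1 and 5. At an unadjusted p under 0.05 1410 and 678 genes passed, and DESeq2 called 61 and 74, none of them a member. The estimates for Lif were 1.43 (SE 0.54, edgeR adjusted p = 0.57) in the males and 0.80 (SE 0.61, edgeR adjusted p = 0.97) in the females, and those for Socs3 were 1.55 (SE 0.51, edgeR adjusted p = 0.56) and 1.19 (SE 0.49, edgeR adjusted p = 0.97). From Day 3 to Day 5 Il6st was the only member to pass in the males, and the females again had 0% of all genes passing, with 1973 at an unadjusted p under 0.05 and 38 with DESeq2. Lif at Day 5 against Day 3 was -1.42 (SE 0.56, edgeR adjusted p = 0.072) in the males, or -1.28 (edgeR adjusted p = 0.092) without the library labelled male Day 5 mouse 1, and -0.51 (SE 0.65, edgeR adjusted p = 0.77) in the females.

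The sexes were compared at each day and in their change from Day 0. At Day 0, Day 2 and Day 5 no member passed, when 0.449%, 1.47% and 0.276% of all genes did. Lif at Day 5 had the largest estimate among them, lower in the males by a log2 difference of -1.24 (SE 0.56, edgeR adjusted p = 0.25). The Day 5 share rested on the library labelled male Day 5 mouse 1, since without it 2644 of 15562 genes passed between the sexes, 17%, instead of 42, again with no member among them, and Lif was at -1.03 (SE 0.59, edgeR adjusted p = 0.27). Tested for a change from Day 0 that differed between the sexes, no member passed at Day 2, Day 3 or Day 5, where 0%, 0.0114% and 0.243% of all genes did. At Day 2 738 genes had an unadjusted p under 0.05 in that test and DESeq2 called 30. For Lif the sex difference in the change was -1.72 (SE 1.14) at Day 2, -1.09 (SE 1.21) at Day 3 and -2.01 (SE 1.20, edgeR adjusted p = 0.45) at Day 5. Without the library labelled male Day 5 mouse 1 the last value was -1.87 (SE 1.28, edgeR adjusted p = 0.45), and 1173 of 17410 genes, 6.74%, passed in that test instead of 41, with no member among them. With errors of this size, a difference of several fold between the sexes in the response of Lif was not detectable, so that its pass at Day 2 in the females and not in the males does not show a sex difference.

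The genes whose 8 group means followed a member most closely were sought among 15036 protein-coding genes, by the root mean square difference of centred log2 group means. Lif, whose means ranged over 4.79 on the log2 scale, was nearest to Adamts4, a matrix protease, at 0.42, to Ddias at 0.44 and to Psrc1 at 0.46. For Socs3 the nearest genes were Arhgef37 at 0.33, Col13a1 at 0.40 and Bdkrb2, the bradykinin receptor, at 0.44. Il31ra was nearest to Arhgef37 at 0.24, the calcium channel gene Trpv6 at 0.33 and the protease-activated receptor gene F2rl1 at 0.34. Osmr was nearest to Usp53 at 0.15, Mdm4, an inhibitor of p53, at 0.15 and Crispld1 at 0.16. Arhgef37 was thus the closest gene for both Socs3 and Il31ra, over 8 group means that share their libraries.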

How the data were processed

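The authors sequenced paired 150-base reads of kidney RNA, aligned them to GRCm38 per the methods of the study, and deposited a gene table with counts, the whole-number reads per gene, and FPKM that the authors computed from them. The submitters' processing notes name HTSeq, DESeq2 and GRCm39 (mm39). The coordinates in the table match GRCm38: of 54409 identifiers found in GENCODE M21, 98.33% had the same coordinates, including all 10 members. The aligner, RNA selection and strand setting are not given in the sources used here.

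Counts as deposited were tested with edgeR 4.0.16 (R 4.3.3): TMM, filterByExpr, robust quasi-likelihood fit on the groups compared, 4 mice each, Benjamini-Hochberg over all genes tested. FPKM served only for levels between genes and the receptor ratio. The scripts were tested on data simulated for male Day 3 against Day 0. There edgeR's test called 24% of changes of 2-fold and 76% of changes of 4-fold, and 2 of 15708 unchanged genes. DESeq2 called 48% and 86%, and 45 unchanged genes. A member that did not pass can therefore still have changed. Alternatives were DESeq2 1.42.0, its size factors, no filter, 1 fit with all 8 groups, a block for the mouse number, removal of mitochondrial genes, the added fold threshold and each mouse left out. A count of 0 allows up to 3 counts of a library, for counting error only.

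The members and gene lists were chosen with earlier results of these data known. Genes named are the members, the genes of the ligand, receptor, kinase and feedback lists (some results are not reported here), responders with an adjusted p under 0.05 and a log2 fold change over 1.5 in size at Day 2 or Day 3 against Day 0, and the 3 genes most like each of the 4 members with the widest range.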

Additional observations from a re-analysis of the deposited data

Results flagged for a closer look

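Of 77 sets of 4 mice, 8 held a mouse far from the other 3 by Dixon's criterion, where chance gives about 1 in 20. Osmr in female Day 3 mouse 2 was 8.84 CPM against 21.6 to 23.3 CPM in the others, and the injured tubule sum of that mouse was the lowest of its group. Stat3 was 66.4 CPM in female Day 2 mouse 4 against 109 to 112 CPM in the others, and 105 CPM in male Day 5 mouse 3 against 65.6 to 70.9 CPM. The first of these mice had an injured tubule sum of 21.1 CPM, and the second had the highest sum of its group at 197 CPM.

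Il6ra was 10.8 CPM in female Day 2 mouse 1 against 7.3997 to 7.81 CPM, and 10.5 CPM in male Day 3 mouse 1 against 6.04 to 6.37 CPM. Il6 was 2.26 CPM (62 counts) in male Day 0 mouse 3 against 0 to 0.0575 CPM in the other Day 0 males, the library in which Lif was at 0 and Socs3 at 1 count. The value of Il6 in female Day 2 mouse 4, 0.0361 CPM, is a single count (1) against 0 in the others. Il31ra in female Day 0 mouse 4 was 0.351 CPM (13 counts) against 0 to 0.0275 CPM.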

How the results depend on the processing

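Of 1328 recomputed values of single genes 1 reversed its direction, Bcl3 at male Day 3, which ranged from -0.31 without Day 3 mouse 1 to 0.0068 without Day 3 mouse 4, while 1054 kept their direction and side of the threshold, 215 no longer passed and 58 newly passed. Of 279 recomputed counts of members passing, 203 stayed within 1.5 times the original. With DESeq2's Wald test the count was 2 at male Day 2 (Lif, Osmr), 2 at male Day 5, 3 at male Day 5 against Day 3, 2 at female Day 2, 6 at female Day 3 (Lif, Osmr, Il6st, Stat3, Socs3, Il31ra) and 2 at female Day 5. Over all genes DESeq2 called 2871 where edgeR called 507 at male Day 2, 4053 against 2878 at male Day 5, 7545 against 5940 at male Day 5 against Day 3, 2151 against 320 at female Day 2, 3472 against 945 at female Day 3 and 713 against 42 at female Day 5. At male Day 3 the count was 6 (Il6st and Il31ra added) with DESeq2, 5 (Il31ra added) without the filter and 5 (Lifr lost, Socs3 and Il31ra added) in a fit over all 8 groups, which at male Day 5 against Day 3 gave 1, Lifr in place of Il6st. Over all genes these settings called 5556, 2677 and 3560 at male Day 3, against 3901 in the main fit. The fit over all 8 groups called 4688 at male Day 5 against Day 3, where the main fit called 5940. A fit over all 8 groups gave 2 at male Day 2, 4 at male Day 5, 6 at female Day 3, 3 at female Day 5 and 0 between the sexes at Day 3, with 2347, 5666, 4268, 1994 and 180 of all genes (3546 between the sexes with the groups fitted alone). Without the filter on low counts it was 2 at male Day 5 against Day 3, 2 at female Day 2, 2 at female Day 5 and 0 between the sexes at Day 3, with 5533, 1059, 185 and 3145 of all genes. DESeq2's size factors and the removal of mitochondrial genes each gave 2 at male Day 5 against Day 3, with 6067 and 6087 of all genes, and those size factors gave 2 at female Day 3, without Osmr, with 432 of all genes against 945. With the fold threshold added the count was 2 at male Day 3 (Lif, Osmr), 0 at male Day 5, 0 at male Day 5 against Day 3 and 0 between the sexes at Day 3. The causes were not tested.

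The mouse numbers were not used as pairs in the main test. In no comparison did all same-numbered mice have correlated deviations above 0.1, and not every mouse correlated best with its own number. Between the sexes at Day 0, 3 of the 4 same-numbered pairs did so, at 0.272, 0.444 and 0.481, with mouse 2 at -0.0737. With the replicate block, 0 members passed at male Day 3, female Day 2, female Day 3, female Day 5 and between the sexes at Day 3, and 2 at male Day 5 against Day 3 (Lif and Lifr, without Il6st), while over all genes the block took the calls at male Day 3 from 3901 to 90, at female Day 2 from 320 to 52, at female Day 3 from 945 to 0, at female Day 5 from 42 to 36, between the sexes at Day 3 from 3546 to 2937 and at male Day 5 against Day 3 from 5940 to 4503.

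Leaving out 1 mouse at a time gave 0 to 3 members at male Day 2, 2 to 8 at male Day 3, 0 to 2 at male Day 5, 0 to 3 at male Day 5 against Day 3, 0 to 5 at female Day 2, 0 to 7 at female Day 3, 0 to 2 at female Day 5 and 0 to 2 between the sexes at Day 3. Over all genes the same fits called 13 to 2306, 669 to 6220, 832 to 3951 and 3536 to 8814 in the 4 male comparisons. They called 21 to 4776, 0 to 6774 and 8 to 2082 in the 3 female comparisons, and 1924 to 5770 between the sexes at Day 3. The highest counts of members at Day 2 and Day 3 against Day 0 came without Day 0 mouse 4 of that sex, when the calls over all genes also rose, to 2306 and 5658 in the males and 4776 and 6774 in the females. Depth limits Il6, Il31ra and Day 0 Lif, at 0 to 62 counts a library, and the male Day 5 libraries, of which up to 79.8% is mitochondrial.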
